A study of Mus musculus with 20 samples.

Results

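The 10 endothelial genes Kdr, Cldn5, Pecam1, Cdh5, Tek, Tie1, Flt1, Eng, Emcn and Sox18 were followed through embryoid body (EB) differentiation of mouse induced pluripotent stem cell (iPSC) lines. They were chosen by name and matched to the gene identifiers of the count table. All 10 were found among its 55573 genes, and all 10 passed the expression filter that left 19240 genes, Emcn and Tie1 only through libraries of 1 line.

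The iPSC lines were clones of embryonic fibroblasts carrying viral Oct4, Sox2, Klf4 and c-Myc. WT#1-4 and WT#20D-17 were labelled wild type, and Nox4-/- #5-8 and Nox4-/- #5-23 came from fibroblasts of mice lacking Nox4, an NADPH oxidase that makes hydrogen peroxide. Cells kept with LIF on mitomycin C-treated embryonic fibroblast feeders were aggregated in hanging drops without LIF, and the EBs were then plated on gelatin. Each line gave 1 RNA library on each of days 0, 3, 5, 7 and 14, which makes 20 libraries, 2 lines per genotype and no repeat of a line on a day. The protocol text of the labels lists a last day other than day 14, the day in the sample titles, which is used here. The labels do not say whether the days of a line came from separate cultures, so p-values measure the spread among these libraries. WT#20D-17 is not named in the study's text.

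Endothelial cells line blood vessels and arise in the EB from mesoderm in which vascular endothelial growth factor (VEGF) acts on the receptor Kdr. Transcription factors of the ETS family, led by Etv2 and followed by Fli1 and Erg, then switch on the receptors, junction proteins and SoxF factors of the mature cell. Blood and endothelium share much of this early program, and several of the genes are also used outside vessels. Pecam1 is carried by leukocytes, platelets and mouse pluripotent cells, Eng by mesenchymal and blood progenitors, and Flt1 by trophoblast.

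Promoters of 7 of the 10 genes were found in RefSeq (GRCm38.p6), each from 250 bases before to 50 bases after the start. The ETS motif was searched as CCGGAA or CAGGAA on either strand, since ETS factors bind such cores, and 5 of the 7 promoters held at least 1 match. The same letters occurred in 41.4% of all 32851 mouse promoters of this length, so a match is a description of the window. Kdr, Tie1 and Emcn are shown because their levels were highest in libraries of 1 line, WT#20D-17, although Emcn was low there too, and Tek because its transcripts were abundant from day 0 in the other lines. Capitals mark ETS matches, which read TTCCGG or TTCCTG where they lie on the opposite strand. The Kdr window (chr5:75978406-75978705, minus strand) and the Tie1 window (chr4:118489800-118490099, minus strand) each held 1 match, and the Emcn window (chr3:137340828-137341127, plus strand) and the Tek window (chr4:94739039-94739338, plus strand) each held 2.
Kdr: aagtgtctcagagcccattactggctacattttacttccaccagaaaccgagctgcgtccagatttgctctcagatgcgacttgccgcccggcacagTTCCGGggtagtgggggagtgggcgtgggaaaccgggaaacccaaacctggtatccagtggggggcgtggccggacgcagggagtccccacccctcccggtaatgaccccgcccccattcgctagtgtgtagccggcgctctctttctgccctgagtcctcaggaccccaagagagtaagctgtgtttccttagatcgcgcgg
Tie1: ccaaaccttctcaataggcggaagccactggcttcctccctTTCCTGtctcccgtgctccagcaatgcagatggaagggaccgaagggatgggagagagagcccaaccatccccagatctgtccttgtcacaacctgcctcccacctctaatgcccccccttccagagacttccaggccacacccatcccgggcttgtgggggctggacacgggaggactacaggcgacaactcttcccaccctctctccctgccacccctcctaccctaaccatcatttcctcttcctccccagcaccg
Emcn: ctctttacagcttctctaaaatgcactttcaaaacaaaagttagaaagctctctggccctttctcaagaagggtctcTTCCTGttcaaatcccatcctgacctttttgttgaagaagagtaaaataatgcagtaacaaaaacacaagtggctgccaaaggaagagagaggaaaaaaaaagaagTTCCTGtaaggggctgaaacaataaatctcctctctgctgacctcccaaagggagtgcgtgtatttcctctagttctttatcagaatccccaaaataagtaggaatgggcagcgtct
Tek: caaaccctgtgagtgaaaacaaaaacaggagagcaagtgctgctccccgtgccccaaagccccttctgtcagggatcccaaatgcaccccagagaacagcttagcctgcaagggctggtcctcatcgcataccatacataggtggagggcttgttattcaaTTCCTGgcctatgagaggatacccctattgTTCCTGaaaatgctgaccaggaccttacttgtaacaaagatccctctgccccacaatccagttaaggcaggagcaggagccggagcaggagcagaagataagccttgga

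The targeted gene was examined first. Over days 0, 3, 5, 7 and 14, WT#20D-17 carried 64, 165, 188, 203 and 56 reads of Nox4 and WT#1-4 carried 7, 22, 21, 12 and 3. Nox4-/- #5-23 carried none, and Nox4-/- #5-8 carried 2 reads on day 3, 1 read on day 7 and none otherwise. Total counts per library were between 20294968 and 27708023, and 3 counts, taken as the floor of detection, corresponded to 0.108 to 0.148 CPM before scaling. CPM gives a gene's count relative to the library total, and levels below are CPM scaled with TMM factors.

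The libraries also differed in cell state. On day 0 Nanog, a pluripotency factor that is not carried by the vectors, stood at 383 CPM in WT#20D-17 and at 0.038, 0.359 and 0.149 CPM in WT#1-4, Nox4-/- #5-8 and Nox4-/- #5-23. Zfp42, another pluripotency marker, had 41.6 CPM in WT#20D-17 on day 0 and was at 0 in all 15 libraries of the other 3 lines. Fgf4 was present in all 4 lines, at 146, 93.4, 135 and 174 CPM in WT#1-4, WT#20D-17, Nox4-/- #5-8 and Nox4-/- #5-23 on day 0. Nanog and Zfp42, which mouse pluripotent cells normally express, were thus at or near 0 in 3 of the 4 lines at the start. Their part in the endothelial results was not tested, and values are given for each line.

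The 10 genes did not share 1 course. In WT#20D-17 Kdr was high from day 3 on and Tie1, Sox18 and Emcn on days 5 and 7, and all 4 genes were near the floor in most libraries of the other lines. Tek, by contrast, was abundant in the 3 other lines on every day and low in WT#20D-17 on days 0 and 3, and Cldn5 was abundant in WT#1-4 alone. Cdh5 and Flt1 rose over the days. In bulk RNA, fewer cells of a type and less RNA per cell cannot be told apart.

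**Figure D1:**
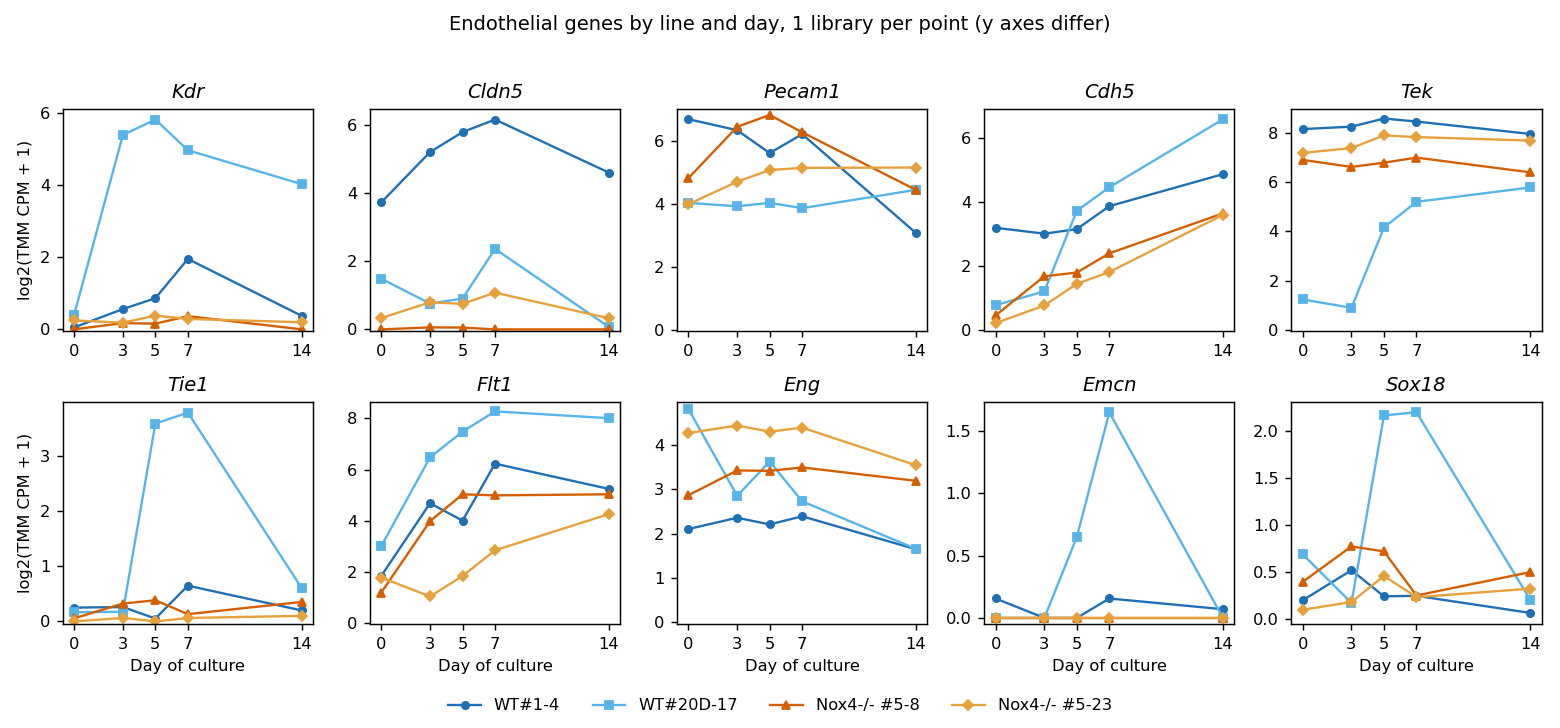
Level of each of the 10 genes, as log2(TMM CPM + 1), against the day of culture (0, 3, 5, 7 and 14), with 1 panel per gene, 1 line per iPSC line and 1 library per point; y axes differ between panels. Kdr, Tie1, Emcn and Sox18 stand out in WT#20D-17 on days 5 and 7, Tek is highest in WT#1-4, and Cdh5 ends higher than it began in all 4 lines.

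The receptors for VEGF came first. Kdr (ENSMUSG00000062960, GRCm38 chromosome 5, 75932827 to 75978458, minus strand), the main signalling receptor for VEGF, had 0.328, 41.3, 55.9, 30.5 and 15.4 CPM in WT#20D-17 on days 0, 3, 5, 7 and 14. In WT#1-4 it had 0.038, 0.477, 0.82, 2.88 and 0.297 CPM. It stayed between 0 and 0.302 CPM in the 10 Nox4-/- libraries, where at most 8 reads were counted. From day 3 on, every library of WT#20D-17 was above every library of the other 3 lines.

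Flt1 (ENSMUSG00000029648, chromosome 5, 147561604 to 147726011, minus strand), a high-affinity VEGF receptor that also acts as a decoy, was the more widely expressed of the VEGF receptors. Its levels in WT#20D-17 were 7.05, 88.1, 178, 309 and 257 CPM, in the order of the days. In WT#1-4 they were 2.58, 24.7, 15, 74.1 and 36.9 CPM, and in Nox4-/- #5-8 they were 1.28, 14.8, 31.7, 30.8 and 31.7 CPM. Nox4-/- #5-23 had 2.42, 1.05, 2.57, 6.17 and 18.1 CPM, the lowest values on each day after day 0. All 4 lines thus ended above their day 0 level, with the ranges of the 3 lines other than WT#20D-17 overlapping.

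The angiopoietin receptor Tek (ENSMUSG00000006386, chromosome 4, 94739289 to 94874976, plus strand), which stabilizes vessels, had the opposite pattern. It stood at 282, 302, 380, 349 and 246 CPM in WT#1-4. In Nox4-/- #5-8 it had 118, 96.7, 109, 126 and 82.9 CPM, and in Nox4-/- #5-23 it had 144, 165, 236, 225 and 204 CPM. WT#20D-17 had 1.35, 0.861, 16.8, 35.6 and 53.8 CPM, so that its highest library was below the lowest library of the other lines.

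Tie1 (ENSMUSG00000033191, chromosome 4, 118471191 to 118490061, minus strand), the orphan partner of Tek, did not follow it. WT#20D-17 had 0.123 and 0.129 CPM on days 0 and 3, 11.1 and 12.9 CPM on days 5 and 7 and 0.525 CPM on day 14. The highest value in the other lines was 0.569 CPM, in WT#1-4 on day 7, and Nox4-/- #5-23 never had more than 2 counts. Against that floor, the day 7 level in WT#20D-17 was at least 94-fold higher.

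Among the junction and surface proteins, Cdh5 (ENSMUSG00000031871, chromosome 8, 104101625 to 104144511, plus strand), the vascular cadherin of adherens junctions, was the member with the most regular course. It had 0.697, 1.29, 12.2, 21 and 95.6 CPM in WT#20D-17 and 8.13, 7.03, 7.87, 13.6 and 28.3 CPM in WT#1-4. Nox4-/- #5-8 had 0.359, 2.18, 2.45, 4.24 and 11.5 CPM, and Nox4-/- #5-23 had 0.149, 0.687, 1.7, 2.49 and 11.1 CPM. Day 14 was the highest day in all 4 lines, and the Nox4-/- libraries were below both wild type libraries on days 5, 7 and 14. On days 0 and 3 only WT#1-4 stood apart.

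Cldn5 (ENSMUSG00000041378, chromosome 16, 18776847 to 18778262, plus strand), the main claudin of endothelial tight junctions, was the gene that separated WT#1-4 most widely. It had 12.2, 35.7, 54, 70 and 23.2 CPM there. WT#20D-17 had 1.8, 0.689, 0.872, 4.13 and 0.0525 CPM, Nox4-/- #5-23 had 0.26, 0.733, 0.681, 1.11 and 0.255 CPM, and Nox4-/- #5-8 never had more than 1 count. The 5 libraries of WT#1-4 were above the 15 others, and the day 7 level was at least 484-fold higher than the floor of Nox4-/- #5-8.

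Pecam1 (ENSMUSG00000020717, chromosome 11, 106654217 to 106750628, minus strand), an adhesion molecule of endothelial junctions, leukocytes and platelets, was abundant in every library. WT#1-4 had 102, 79.7, 47.8, 73 and 7.39 CPM and Nox4-/- #5-8 had 27.1, 86.1, 112, 76.1 and 20.7 CPM. WT#20D-17 stayed between 13.5 and 20.7 CPM, and Nox4-/- #5-23 between 14.8 and 34.5 CPM. The lines of both genotypes overlapped.

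Eng (ENSMUSG00000026814, chromosome 2, 32646595 to 32682669, plus strand), a co-receptor for TGF-β family ligands, had 27.2, 6.24, 11.4, 5.64 and 2.15 CPM in WT#20D-17 and between 2.13 and 4.25 CPM in WT#1-4. It had 6.31 to 10.3 CPM in Nox4-/- #5-8 and 10.7 to 20.8 CPM in Nox4-/- #5-23. All 10 Nox4-/- libraries were above all 5 libraries of WT#1-4. Eng shares its locus with other annotated genes, one of them Fpgs on the opposite strand, and whether the counting used the strand is not given in the sources used here.

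The sialomucin Emcn (ENSMUSG00000054690, chromosome 3, 137341067 to 137432185, plus strand), found on veins and capillaries, had 13 counts on day 5 and 48 counts on day 7 in WT#20D-17, or 0.567 and 2.13 CPM. It was at 0 there on days 0, 3 and 14, at 0 in all 10 Nox4-/- libraries and at no more than 3 counts in WT#1-4. Its day 7 level was at least 14.7-fold higher than the floor of Nox4-/- #5-8 and at least 15.5-fold higher than that of Nox4-/- #5-23. Sox18 (ENSMUSG00000046470, chromosome 2, 181669836 to 181671640, minus strand), the SoxF transcription factor of the list, had 3.49 and 3.6 CPM in WT#20D-17 on days 5 and 7. All other libraries had between 0.0496 and 0.713 CPM. Both genes were thus measurable above the rest in the same 2 libraries.

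Across genes, levels were compared per kilobase of exon. Tek ranked first in WT#1-4, Nox4-/- #5-8 and Nox4-/- #5-23, with 66.2 ± 11.3, 22.6 ± 3.63 and 41.4 ± 8.38 CPM per kilobase (mean ± SD over 5 days). In each of these 3 lines the gap to the second gene was larger than either SD. The second place went to Cldn5 in WT#1-4 (27.5 ± 16.5 CPM per kilobase) and to Pecam1 in both Nox4-/- lines (10.3 ± 6.33 in #5-8 and 4.53 ± 1.36 in #5-23). In WT#20D-17 the order was Flt1 (12.4 ± 9.11), Cdh5 (6.22 ± 9.45), Tek (4.61 ± 4.86), Kdr (3.18 ± 2.4), Eng (2.6 ± 2.44) and Pecam1 (2.54 ± 0.454), and each of the first 5 lay within 1 SD over days of the next. Pecam1 stood above the seventh gene, Cldn5 (1.07 ± 1.12), by more than either SD. Kdr ranked 8 of 10 in the 3 other lines, with means of 0.1 ± 0.126, 0.0117 ± 0.0132 and 0.022 ± 0.00743 CPM per kilobase.

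**Figure D2:**
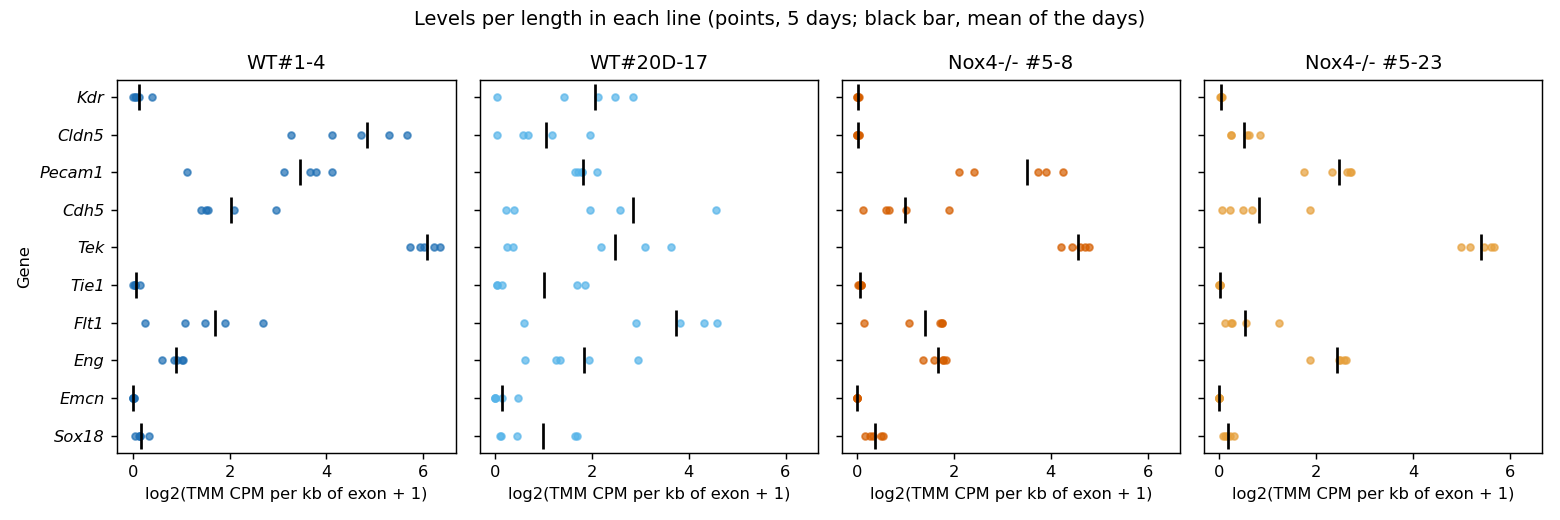
Level of each gene per kilobase of exon, as log2(TMM CPM per kilobase + 1) on a shared x axis, in the 4 lines; points are the 5 days and black bars the mean of the days. Tek lies farthest to the right in the 3 lines other than WT#20D-17, where Flt1 does.

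Change over the days was tested with the line as a block in edgeR's quasi-likelihood fit, at an FDR under 0.01. Any change over days was called for 2 of the 10 genes, Cdh5 (FDR 0.000631) and Flt1 (FDR 0.00269), against 16.4% of the 19240 genes tested. From day 0 to day 14, Cdh5 rose by 4.54 ± 0.75 (log2 difference ± SE, edgeR FDR 0.000189) and Flt1 by 3.94 ± 0.69 (FDR 0.000318). Both moved upward in 4 of 4 lines. The calls were 2 of 10, all higher, where 26.7% of all genes were called and 13.6% were called higher. The calls of any change were not stable to the lines. They were Kdr and Flt1 without Nox4-/- #5-23 (3.01% of all genes), where Cdh5 had an FDR of 0.0321, Cldn5 and Cdh5 without WT#20D-17 (21.5%), Cdh5 alone without WT#1-4 (7.01%) and none of the 10 without Nox4-/- #5-8 (4.82%).

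From day 0 to day 7, Kdr rose by 5.05 ± 1.15 (edgeR FDR 0.00533) and Flt1 by 3.88 ± 0.71 (FDR 0.00143). These were the 2 calls of 10, both higher, beside 10.8% of all genes called and 5.89% called higher. Kdr climbed clearly in the wild type lines only, from 1 to 76 reads in WT#1-4 and from 8 to 687 in WT#20D-17. Nox4-/- #5-8 went from 0 to 6 reads of Kdr, and Nox4-/- #5-23 stayed at 5. In both Nox4-/- lines the 95% intervals for counting error overlapped between day 0 and day 7. The average size for Kdr thus rests on few counts. The calls were Cldn5 and Flt1 without WT#20D-17 (15.8% of all genes), Cdh5 alone without WT#1-4 (4.66%), and none of the 10 without Nox4-/- #5-8 (2.68%). From day 7 to day 14 none of the 10 was called (0 of 10; 0.0104% of all genes) by edgeR or by DESeq2 (1.51% of all genes), with 3 of 10 members and 3176 of 19240 genes at an unadjusted p under 0.05. Without the line block, 0 of the 10 were called in any of these contrasts, beside 3.24% of all genes for any change, 8.84% from day 0 to day 14, 0.743% from day 0 to day 7 and 0% from day 7 to day 14.

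The study's comparison pooled the days and used edgeR, and it was rerun here with WT#1-4 against both Nox4-/- lines by the exact test. The 5 days of a line stand as replicates there, which they are not. Of the 10 genes, 3 were higher in WT#1-4 and 1 was lower, where 5.62% of 33860 genes were called, 3.97% higher and 1.65% lower. Cldn5 was higher by 6.94 (edgeR FDR 1.79e-12), Tek by 1.05 (FDR 0.000444) and Kdr by 2.53 (FDR 0.00882), all on the log2 scale, where the sizes for Cldn5 and Kdr rest on few counts in the Nox4-/- lines, and Eng was lower, at -1.93 (FDR 3.7e-06). The median log2 difference of the 9 genes other than Emcn was 1.05, and that of all genes 0.00. The direction held in 5 of 5 days for Cldn5, Tek and Eng against either Nox4-/- line.

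The call of Kdr rested on few counts. It was lost without either Nox4-/- line (FDR 0.13 without #5-8 and 0.0858 without #5-23) and without day 3, 5, 7 or 14, with FDR between 0.0154 and 0.318. Tek lost its call without Nox4-/- #5-8 (0.65 on the log2 scale, FDR 0.0444) and without day 3 (FDR 0.0155). Cdh5, at 1.82 (FDR 0.0819), was called where day 14 was left out (2.35, FDR 0.00204). With WT#20D-17 added to the wild type side, the calls were Kdr, Cldn5, Flt1, Tie1 and Emcn, beside 12.1% of all genes, and Tek (0.15, FDR 1) and Eng (-0.92, FDR 0.129) were not called. The calls of Tie1 and Emcn rest on libraries of WT#20D-17, since WT#1-4 had at most 15 and 3 counts of them. These calls are no support for a difference between genotypes.

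Comparing lines rather than genotypes, with the day as block, gave the widest differences. WT#20D-17 differed from the mean of both Nox4-/- lines in 7 of 10 genes, 6 higher and 1 lower, where 49.6% of all genes were called, 26.9% higher and 22.7% lower. Kdr was higher by 7.27 ± 0.63 (edgeR FDR 4.67e-08), Tie1 by 4.84 ± 0.96 (FDR 0.000354), Flt1 by 3.54 ± 0.46 (FDR 5.19e-06), Cldn5 by 3.48 ± 0.58 (FDR 6.39e-05) and Cdh5 by 2.23 ± 0.49 (FDR 0.000811). The sizes for Tie1 and Cldn5 depend on the prior count, since Nox4-/- #5-23 and #5-8, respectively, were at or under the floor. The size for Kdr rests on few counts, at most 6 per library in #5-8 and 8 in #5-23. Emcn was the sixth (FDR 0.00905). Emcn and Tie1 passed the low-count filter only through WT#20D-17, so their calls are no support for a difference. Of the 8 genes that reached its cutoff in at least 2 libraries of the other lines, 4 were higher and 1 lower, beside 21.2% and 24.9% of the 17556 such genes. Tek was lower, at -3.20 ± 0.67 (FDR 0.00058). Tie1 lost its call without day 7 (FDR 0.0108) and Emcn without day 3 (FDR 0.0106), without day 14 (FDR 0.0125) or with DESeq2 (FDR 0.16). Without day 5 or day 7 Emcn did not pass the low-count filter. Pecam1 (-1.37 ± 0.47, FDR 0.019), Sox18 (1.94 ± 0.65, FDR 0.0159) and Eng (-0.56 ± 0.36, FDR 0.195) did not pass. Sox18 was called without day 3 (FDR 0.00526) or day 14 (FDR 0.00454), Pecam1 without day 14 (FDR 0.00136) and Eng without day 0 (FDR 0.00122).

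The same contrast for WT#1-4 called 3 of 10 genes, 2 higher and 1 lower, where 11.6% of all genes were called, 7.91% higher and 3.73% lower. Cldn5 was higher by 8.43 ± 0.51 (edgeR FDR 7.08e-09), a size that depends on the prior count because Nox4-/- #5-8 was at the floor. Cdh5 was higher by 2.74 ± 0.50 (FDR 0.000843), and Eng was lower, at -1.87 ± 0.37 (FDR 0.00163). Cdh5 lost its call without the day block (1.85, FDR 0.19). Tek, called in the pooled test, did not pass with the day as block (1.13 ± 0.52, FDR 0.137). Kdr, at 2.24 ± 0.67 (FDR 0.0253), did not pass, but was called without day 0 (FDR 0.00121). Eng lost its call without day 3, 5 or 7, with FDR between 0.0119 and 0.0153.

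**Figure D3:**
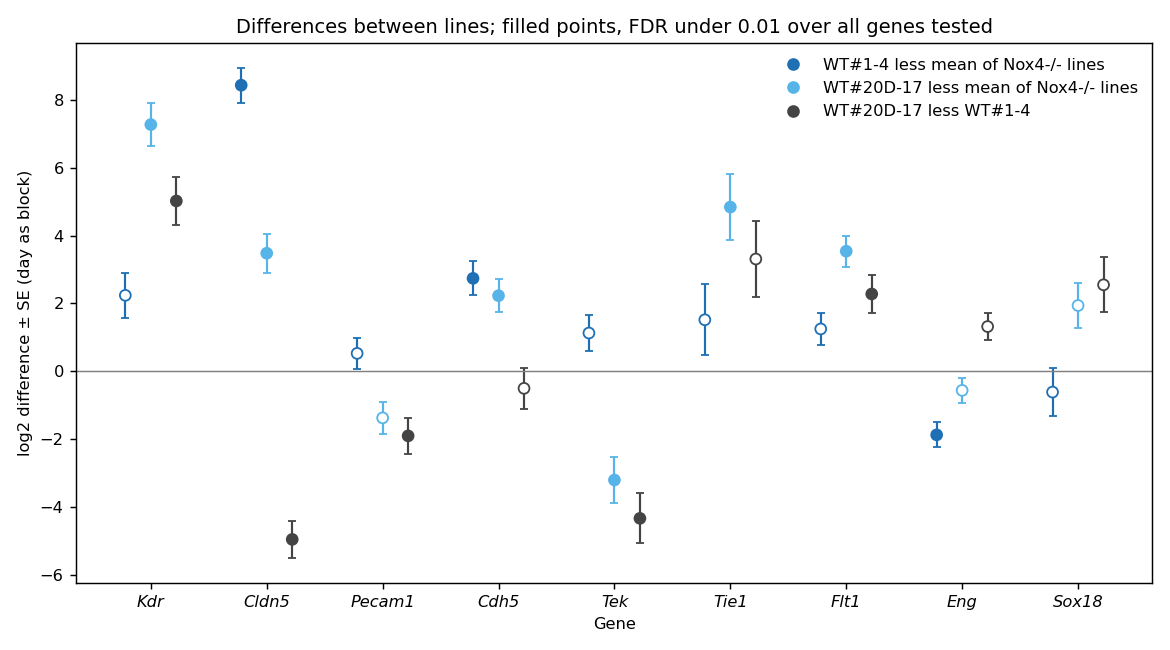
Log2 difference ± SE of 9 genes (Emcn is left out because both Nox4-/- lines were at 0) in 3 contrasts between lines, from a quasi-likelihood fit with the day as block over 20 libraries; filled points have an FDR under 0.01. Cldn5 is highest in the WT#1-4 contrast at 8.43, a size that depends on the prior count. Kdr is highest in the WT#20D-17 contrast at 7.27, a size that rests on few counts in the Nox4-/- lines. Tek lies below 0 in both contrasts of WT#20D-17.

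The wild type lines also differed from each other. WT#20D-17 less WT#1-4 gave 2 genes higher and 3 lower, where 39.2% of all genes were called, 20.5% higher and 18.7% lower. Kdr was higher in WT#20D-17 by 5.02 ± 0.72 (edgeR FDR 2.29e-05) and Flt1 by 2.28 ± 0.55 (FDR 0.00246). Cldn5 was lower, at -4.95 ± 0.55 (FDR 1.4e-06), as were Tek, at -4.33 ± 0.74 (FDR 0.000131), and Pecam1, at -1.90 ± 0.54 (FDR 0.00761). The call of Pecam1 was lost without day 0, 3, 5 or 7 (FDR between 0.0283 and 0.0537), and that of Flt1 without day 5 or day 14 (FDR 0.0129 and 0.0103). Tie1 (3.31 ± 1.11, FDR 0.0197), Sox18 (2.55 ± 0.81, FDR 0.0139) and Eng (1.32 ± 0.41, FDR 0.0135) did not pass, and DESeq2 called all 3. Sox18 was called without day 3 (FDR 0.00316), Eng without day 14 (FDR 0.00692) and Tie1 without day 0 (FDR 0.00836). Tie1 passed the low-count filter only through WT#20D-17, so its edgeR call is no support for a difference. The DESeq2 call of Tie1 rests on the same libraries of WT#20D-17, beside at most 15 counts in WT#1-4, and is not read as support either. These contrasts share libraries, so the values stand side by side and are not independent.

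Between the Nox4-/- lines, 1 gene of 10 was called, Cldn5, which was higher in #5-23 (edgeR FDR 0.00376), beside 3.32% of all genes called and 1.87% called higher. Its day 7 level in #5-23 was at least 7.68-fold higher than the floor of #5-8. None of the 10 was called when day 3, 5 or 7 was left out, beside 0.921%, 0.816% and 0.898% of all genes, and Flt1 was called as well without day 0 (3.22% of all genes).

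Genotype itself could be tested with 2 lines on each side. With the counts of each line summed over days, 0 of the 9 genes tested passed, beside 0% of 20229 genes, by edgeR's quasi-likelihood test, and 0 by its exact test, beside 0.613% of these genes. At an unadjusted p under 0.05 there were 2 of the 9, Kdr (6.57 ± 2.02) and Cdh5 (2.26 ± 0.50), each with an FDR of 0.604, beside 1628 of the 20229 genes. The interaction of genotype and day called 0 of 10 genes and 0.0104% of all genes, with 0 of 10 members and 1391 of 19240 genes at an unadjusted p under 0.05 and 0 members, beside 0.579% of 33860 genes, called by DESeq2. In simulated counts this fit found fewer of the changed genes than the other fits. It found 0 of 200 genes changed by 2 on the log2 scale and 153 of 200 changed by 4. Its 0 calls therefore do not show that the genotypes shared a course. Leaving out WT#1-4 leaves 1 wild type line, and the spread then comes from the Nox4-/- lines alone, so no call is read from that fit.

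The genes were not correlated as a block. Over the 20 libraries, the 45 pairs had Pearson correlations of log2(CPM + 1) from -0.72 to 0.94, with a median of 0.10, and 21 of the 45 were below 0. Tie1 and Sox18 (0.94), Tie1 and Emcn (0.91) and Emcn and Sox18 (0.84) were the closest pairs, and all 3 shared the day 5 and day 7 libraries of WT#20D-17 as their high points. Cdh5 and Eng lay at -0.72, and Kdr and Tek at -0.57. The libraries share lines and days, so these values describe this set.

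The nearest genes by the same measure differed from gene to gene. For Kdr they included Asb4 (0.990), Ntng1 (0.986), Wnt4 (0.983) and Pcdh7 (0.980). For Cdh5 they were Rhobtb1 (0.922), Slc39a13 (0.920), Sidt2 (0.917), Vsir (0.916) and Slc2a10 (0.908), and for Pecam1 they were Efhd1 (0.898), Caln1 (0.889), Selp (0.873), Gm11528 (0.865) and Tbck (0.864). No list had a gene in common. Ntng1 was low, with a mean of 0.11 CPM and a highest level of 0.533 CPM, so its correlation rests on few counts. Selp and Gm11528 were also low, with means of 0.497 and 0.458 CPM.

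The rest of the endothelial program was measured with 4 further lists. Of the 18 transcription factors, Elk3 had 5.15 CPM or more in every library. Etv2, which starts the program, had 3.57, 2.58, 1.61, 0.4 and 0 CPM in WT#20D-17 on days 0, 3, 5, 7 and 14 and no more than 0.19 CPM elsewhere. Fli1 and Erg, ETS factors of the mature cell, reached 2.84 and 2.62 CPM in WT#20D-17, on days 7 and 5, and no more than 0.152 and 0.72 CPM in the other lines. Sox7, a SoxF factor of endothelium and also of primitive endoderm, had 17.4, 13.4, 18.7, 31.7 and 116 CPM in WT#20D-17 and at most 0.341 CPM in the other lines. Across the days, 14 to 18 of the 18 factors exceeded 3 counts in WT#20D-17, 12 to 17 of them did in the libraries of WT#1-4, and 10 to 13 did in those of the Nox4-/- lines.

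In the list counts for WT#20D-17 that follow, only genes that reached the cutoff of the low-count filter in at least 2 libraries of the other lines are counted, with shares over the 17556 such genes. In the contrast of WT#20D-17 with the Nox4-/- lines, 5 of 12 factors were higher and 0 lower (21.2% and 24.9% of such genes), with Ets1 at 5.11 ± 0.37 (edgeR FDR 5.37e-09) first among them. Bcl6b and Sox7 are outside this count, since they passed the filter only through WT#20D-17. They had at most 3 counts in any Nox4-/- library. WT#20D-17 against WT#1-4 gave 4 of 12 higher and 0 lower (15.8% and 20.4% of such genes), among them Prox1 (2.94 ± 0.38, edgeR FDR 6.92e-06), the lymphatic factor. Bcl6b, again outside the count, had at most 4 counts in WT#1-4. WT#1-4 against the Nox4-/- lines gave 1 higher, Ets1 (2.34 ± 0.36, edgeR FDR 0.000199), and 1 lower, Prox1 (-2.50 ± 0.34, FDR 5.43e-05), where 7.91% of all genes were higher and 3.73% lower. From day 0 to day 14, 2 of the 18 rose and 2 fell, near the background of 13.6% of all genes higher and 13% lower, with Elk3 at 1.47 ± 0.27 (edgeR FDR 0.000444), Lmo2 at 3.47 ± 0.82 (FDR 0.003) and Hhex at -2.11 ± 0.49 (FDR 0.00264).

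**Figure D4:**
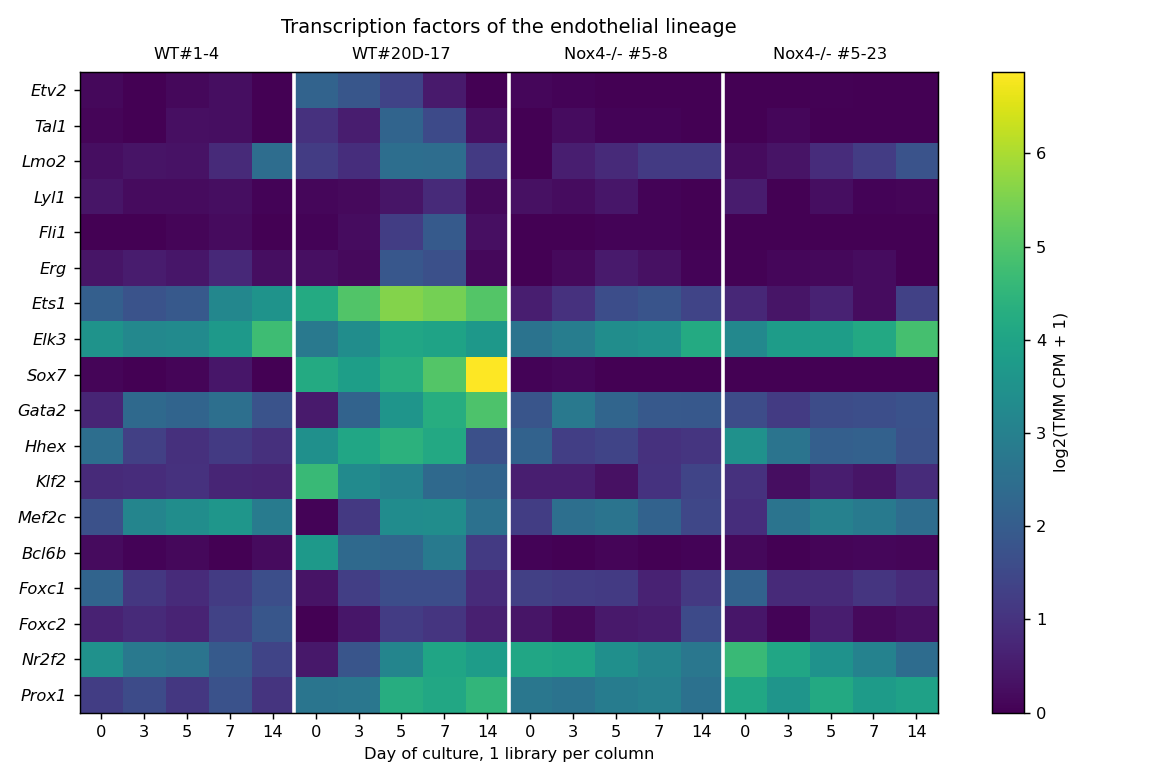
Level of the 18 transcription factors of the endothelial lineage, as log2(TMM CPM + 1), with genes in rows and the 20 libraries in columns, by line and then by day. Sox7 and Ets1 are brighter in every column of WT#20D-17 than in those of the other lines. Bcl6b, Etv2, Fli1 and Tal1 are fainter and reach their highest levels in columns of WT#20D-17, while Elk3 is present in all columns.

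The next list held 11 ligands, co-receptors and further receptors of the VEGF and angiopoietin pathways. Vegfa, the ligand of Kdr and Flt1, had 45.8, 105, 94, 376 and 928 CPM in WT#1-4 and 42.4, 208, 383, 309 and 373 CPM in WT#20D-17. It had 13.5, 41.2, 85.2, 106 and 204 CPM in Nox4-/- #5-8 and 8.96, 22, 61.4, 80.6 and 221 CPM in Nox4-/- #5-23. Vegfa rose by 4.12 ± 0.40 from day 0 to day 14 (edgeR FDR 2.8e-06), in 4 of 4 lines, with Nrp2 (2.11 ± 0.46, FDR 0.00182) and Pgf (4.22 ± 0.97, FDR 0.00253) as the other calls among the 11 genes (13.6% of all genes higher). In WT#1-4 against the Nox4-/- lines 3 of the 11 were higher, Vegfa (1.78 ± 0.27, edgeR FDR 0.000124), Vegfd (1.11 ± 0.19, FDR 0.000391) and the co-receptor Nrp2 (1.55 ± 0.33, FDR 0.00295), and 0 lower, where 7.91% of all genes were higher. In WT#20D-17 5 of 9 were higher and 1 lower (21.2% and 24.9% of such genes), led by Vegfd (-2.12 ± 0.22, edgeR FDR 3.53e-07) and Vegfb (1.55 ± 0.18, FDR 1.44e-06). The lymphatic receptor Flt4 is outside this count. It passed the filter only through WT#20D-17 and had at most 7 counts in the Nox4-/- libraries. WT#20D-17 was higher than WT#1-4 in 4 of 9 and lower in 1 (15.8% and 20.4% of such genes), with Vegfd at -3.23 ± 0.25 (edgeR FDR 2.09e-08).

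Of the 26 other endothelial surface and signalling genes, 22 passed the filter. WT#20D-17 was higher than the Nox4-/- lines in 10 of 17 and lower in 2 (21.2% and 24.9% of such genes), with Vwf at 4.61 ± 0.28 (edgeR FDR 7.12e-10) and Plvap at 4.20 ± 0.36 (FDR 3.81e-08). Stab2, a scavenger receptor of sinusoidal endothelium, is outside this count. It passed the filter only through WT#20D-17 and had at most 7 counts in the Nox4-/- libraries. WT#1-4 was higher in 3 of the 22 and lower in 0 (7.91% and 3.73% of all genes), with Vwf, the clotting factor stored in endothelium, at 2.44 ± 0.29 (edgeR FDR 1.25e-05). The other genes called there, Ptprb (FDR 0.0023) and Apln (FDR 0.00285), were at or near the floor in the Nox4-/- lines. On days 3 and 14 WT#1-4 itself had 3 and 1 counts of Ptprb and 3 and 6 counts of Apln. Both passed the low-count filter only through WT#20D-17, a line outside this contrast, so their calls are no support for a difference. From day 0 to day 14, 5 rose and 0 fell (13.6% and 13% of all genes), led by Acvrl1 (3.57 ± 0.35, edgeR FDR 3.1e-06), Vwf (3.00 ± 0.42, FDR 4.85e-05) and Esam (2.35 ± 0.38, FDR 0.000139). Esam, an endothelial adhesion molecule that was below Egfl7 and Stab2 in every library of WT#20D-17, had 36.3 CPM in WT#1-4, 54 CPM in Nox4-/- #5-8, 38.8 CPM in Nox4-/- #5-23 and 13.2 CPM in WT#20D-17 on day 14. Against WT#1-4, WT#20D-17 was higher in 9 of 17 and lower in 2 (15.8% and 20.4% of such genes), with Egfl7 at 3.61 ± 0.37 (edgeR FDR 6.7e-07) and Ecscr at 2.78 ± 0.31 (FDR 1.74e-06). Between the Nox4-/- lines, Acvrl1 (-1.70 ± 0.29, FDR 0.00186) and Ecscr (-1.69 ± 0.31, FDR 0.00311) were lower in #5-23 and She (3.67 ± 0.75, FDR 0.00569) was higher, where 1.45% of all genes were lower and 1.87% higher.

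Among the 11 Notch and ephrin genes of arteries and veins, the ligand Jag2 had the highest CPM in every library of the 3 lines other than WT#20D-17, where the receptor Ephb4 did from day 3 on. Jag2 was lower in WT#20D-17 than in the Nox4-/- lines, at -2.24 ± 0.18 (edgeR FDR 2.03e-08), within 3 of 10 genes higher and 2 lower (21.2% and 24.9% of such genes). The arterial ligand Dll4 was called higher both there (FDR 1.17e-05) and in WT#1-4 (FDR 0.00337), with 3.18 CPM on day 5 in WT#20D-17, 0.992 CPM on day 14 in WT#1-4 and at most 0.144 CPM in the Nox4-/- lines. Notch4, an endothelial Notch receptor, was lower in WT#1-4, at -1.66 ± 0.35 (edgeR FDR 0.00256). Jag1 (-1.55 ± 0.31, edgeR FDR 0.000829) and Jag2 (-0.79 ± 0.21, FDR 0.00727) fell from day 0 to day 14, where 13% of all genes fell.

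Markers of other cell types differed between the same libraries, and their part in the endothelial values was not tested. The summed level of 10 endoderm markers was 1140, 2930, 6480, 9780 and 48600 CPM in WT#20D-17, 324, 696, 772, 1370 and 2120 CPM in WT#1-4, 94.5, 440, 661, 719 and 896 CPM in Nox4-/- #5-8 and 60.0, 404, 734, 633 and 832 CPM in Nox4-/- #5-23. In the other 3 lines these sums were mostly Sparc, a matrix gene that many cell types express, with 2090 CPM in WT#1-4, 875 CPM in Nox4-/- #5-8 and 824 CPM in Nox4-/- #5-23 on day 14, and in WT#20D-17 they were mostly Sparc and Col4a1 (12000 and 26200 CPM on day 14). All 5 endoderm markers that reached the cutoff in the other lines were called higher in WT#20D-17 than in the Nox4-/- lines (21.2% of such genes). The other 5, Afp, Apoa1, Foxa2, Sox17 and Ttr, had at most 2 counts in any Nox4-/- library, and Afp stood at 667 CPM in WT#20D-17 on day 14. The 10 early mesoderm markers, with Pdgfra highest in WT#20D-17 on days 7 and 14 and Bmp4 highest in the other lines, summed to 68.6, 309, 386, 407 and 379 CPM in WT#20D-17 and to no more than 52.3 CPM in any library of the other lines, with 7 of 8 called higher than in the Nox4-/- lines. T, the primitive streak factor, reached 43.8 CPM in WT#20D-17 on day 3.

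The 11 primitive blood markers summed to 13.2, 21.1, 34.3, 80.6 and 17.3 CPM in WT#20D-17, with day 7 highest, as it was for Tie1, Flt1, Cldn5, Emcn and Sox18 but not for Kdr, Cdh5, Tek, Pecam1 or Eng. Runx1 was the highest of them in every library but that of day 7, where it had 13.4 CPM, and the embryonic globins Hbb-bh1, Hbb-y and Hba-x had 30.8, 11.4 and 10.9 CPM on day 7. Of 7 such markers, 3 were higher than in the Nox4-/- lines and 1 was lower (21.2% and 24.9% of such genes). Hbb-y was also present in WT#1-4, at 16, 8.22, 4.7, 2.92 and 6.79 CPM. Hbb-bh1 was at 0 in all 15 libraries of the other lines, whose summed levels were 26.7 to 63.9 CPM in WT#1-4, 8.22 to 21.1 CPM in Nox4-/- #5-8 and 29.2 to 80.5 CPM in Nox4-/- #5-23. The 8 myeloid markers, led by Cd68, summed to 109 CPM in WT#20D-17 on day 14, with Csf1r at 36.1 CPM, while the pan-leukocyte marker Ptprc never exceeded 0.472 CPM. Ptprc had 9 counts in that library and at most 4 counts in any other, beside Pecam1 at 7.39 CPM or more in all 20.

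Mesenchymal and trophoblast markers also differed. The 9 fibroblast markers, with Col3a1 highest in WT#20D-17 on days 7 and 14 and Fbn1 highest in the other lines, summed to 26.0, 109, 424, 2670 and 3030 CPM in WT#20D-17, to 185 to 407 CPM in WT#1-4, to 19.9 to 73.4 CPM in Nox4-/- #5-8 and to 20.0 to 35.3 CPM in Nox4-/- #5-23. The 9 smooth muscle and pericyte markers, with Acta2 highest in WT#20D-17 from day 5 on and Des highest in WT#1-4 and Nox4-/- #5-8, summed to 249 to 1260 CPM in WT#20D-17, 492 to 1080 CPM in WT#1-4, 33.3 to 201 CPM in Nox4-/- #5-8 and 32.0 to 134 CPM in Nox4-/- #5-23. The 7 trophoblast markers, with Krt7 highest in WT#20D-17 on days 3 to 7, summed to 39.9, 86.4, 127, 143 and 304 CPM in WT#20D-17 and to no more than 52.6 CPM in the other lines, and Prl3d1, a hormone of trophoblast giant cells, reached 136 CPM there on day 14. Flt1 stood at 257 CPM in that library. Called higher in WT#20D-17 than in the Nox4-/- lines were 6 of 8 fibroblast, 7 of 9 smooth muscle and pericyte, and 4 of 6 trophoblast markers, with 0 lower (21.2% and 24.9% of such genes). WT#1-4 was higher in 4 fibroblast and 5 smooth muscle and pericyte markers (7.91% of all genes). Heart muscle markers, with Myh7 highest in WT#20D-17 from day 5 on, summed to 13.5, 35.5, 189, 214 and 238 CPM in WT#20D-17 and to no more than 25.6 CPM elsewhere.

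**Figure D5:**
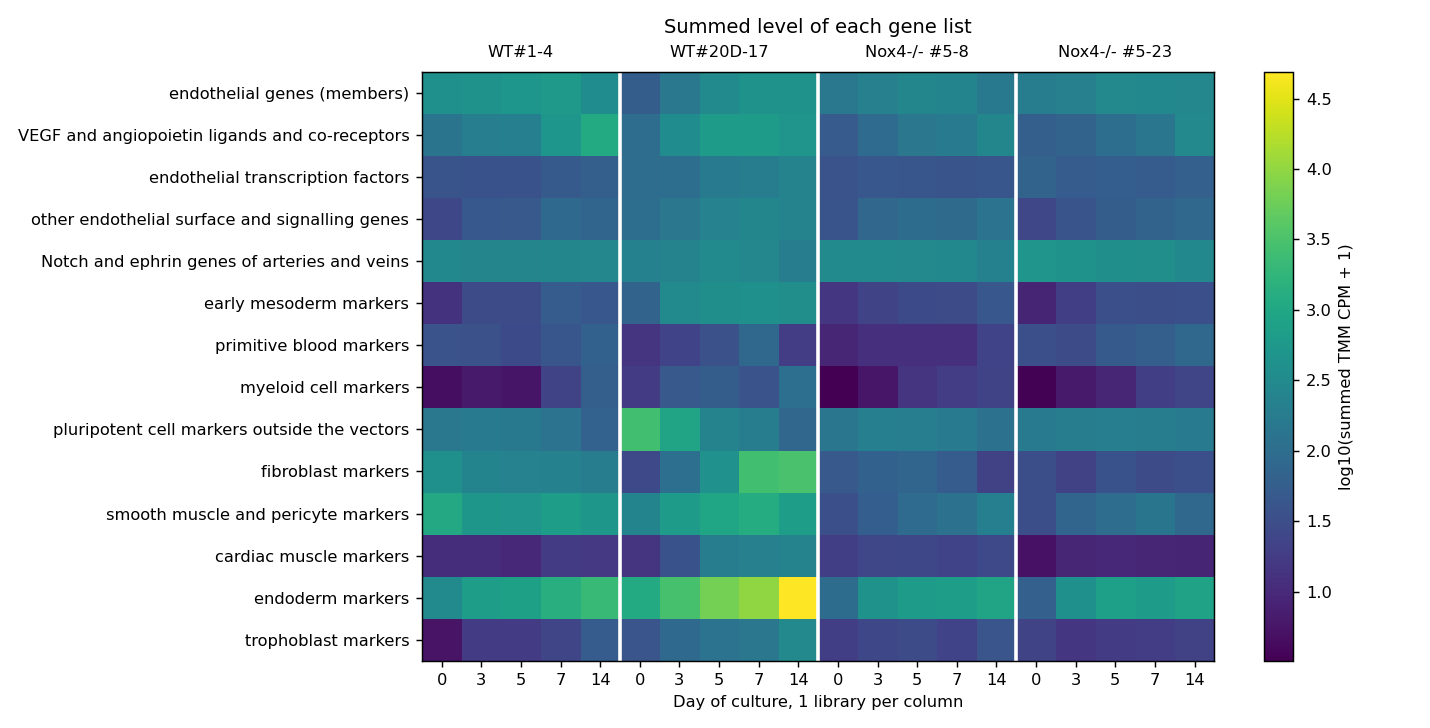
Summed level of each of the 14 gene lists in each of the 20 libraries, as log10(summed TMM CPM + 1), by line and then by day. The endoderm row of WT#20D-17 reaches 48600 CPM on day 14, its pluripotency row starts at 2670 CPM on day 0, and the row of the 10 endothelial genes lies between 54.5 and 588 CPM.

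The median gene of chromosome 5, which carries Kdr and Flt1, was higher in Nox4-/- #5-23 than in Nox4-/- #5-8 by 0.53 and than in WT#1-4 by 0.56 on the log2 scale, relative to all genes. Subtracting the chromosome 5 median from the pooled comparison moved Kdr from 2.53 to 2.74 and Flt1 from 1.13 to 1.34. Neither changed direction.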

How the data were processed

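RNA-seq libraries (TruSeq stranded mRNA, paired-end) were mapped to mouse GRCm38 with STAR 2.6.0c and quantified with RSEM 1.3.1 by the authors, who deposited gene-level expected counts without normalization. Reads mapping to more than 1 gene are split by RSEM, so that 9.92% of the values had decimals. Expected counts were rounded to whole numbers, and all further values were computed with edgeR 4.0.16 (on limma 3.58.1) in R 4.3.3, with DESeq2 1.42.0 as an alternative. Genes nonzero in at least 1 library (33860) entered the pooled exact test after TMM normalization, and the 19240 genes passing filterByExpr by genotype and day entered a quasi-likelihood fit with line and day, each serving as a block for the other. Genotype by day and sums over days (20229 genes) were fitted separately. FDR values are Benjamini-Hochberg over all genes tested, called under 0.01. EBSeq-HMM, the study's time course tool, was not run.

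Symbols and coordinates came from GENCODE M21, which held 55480 of 55573 identifiers, and promoters from RefSeq. The pairing of days within a line comes from the line itself: deviations from the day means correlated between days of a line at 0.437 or more over 19240 genes. Floors are 3 counts and reflect counting error alone. The median library total was 23878854. Fits were tested on simulated data. The genes and lists were chosen with earlier results of these data known. Named genes are all 10 members, up to 3 genes per list and comparison with the smallest FDR, the gene of highest mean CPM in each marker list and the 5 nearest genes of Cdh5, Kdr and Pecam1, of which 1 is not reported here. Etv2, Fli1, Erg, Sox7, Esam and Dll4 in levels, and the markers quoted in single libraries or as highest in a line, were chosen after their values were seen, as was the restriction of the counts for WT#20D-17 to genes reaching the cutoff in 2 libraries of the other lines. Alternatives covered the test, normalization, low-count filter, threshold, block, lines, days and chromosome 5.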

Additional observations from a re-analysis of the deposited data

Results flagged for a closer look

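With 2 lines per genotype, no group was large enough to search for outlying samples. Pecam1 changed from day 0 to day 7 by -0.48 in WT#1-4 and -0.17 in WT#20D-17 on the log2(CPM + 1) scale. It changed by 1.46 in Nox4-/- #5-8 and 1.16 in Nox4-/- #5-23, a difference between the genotype means of -1.63. In WT#20D-17 the 95% intervals for counting error overlapped between these days. By day 14 each genotype held both directions, with -3.62 in WT#1-4, 0.41 in WT#20D-17, -0.37 in Nox4-/- #5-8 and 1.17 in Nox4-/- #5-23. For Sox18 the changes from day 0 to day 14 were -0.13 and -0.48 in the wild type lines and 0.10 and 0.22 in the Nox4-/- lines. The difference was -0.47, on counts of at most 15. The 95% intervals for counting error overlapped between these days in every line, so no direction is shown for Sox18. These single-day differences were not tested. In the edgeR interaction over all days, which found fewer changed genes in simulated counts than the other fits, Pecam1 had an FDR of 0.958 and Sox18 of 0.904.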

How the results depend on the processing

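Of the recounts of members called, 85 stayed within 1.5 times of the reported count and 19 did not. WT#20D-17 less WT#1-4 had 5 calls (39.2% of all genes), 8 with DESeq2 (24.7%), 8 without a low-count filter (21.6%), 8 at an FDR under 0.05 (51.2%) and 3 to 5 with a day left out (28.7% to 42.6%). Without the replicate block, any change over days, day 7 less day 0, day 14 less day 0 and Nox4-/- #5-23 less #5-8 had 0 calls (3.24%, 0.743%, 8.84% and 1.53% of all genes), and Cdh5 in WT#20D-17 less WT#1-4 turned from -0.50 to 0.96. With a line or day left out, calls ranged from 2 to 4 in the pooled comparison (3.29% to 5.89% of all genes). They ranged from 0 to 2 in any change over days (3.01% to 21.5%) and 0 to 2 in day 7 less day 0 (0.956% to 15.8%). Between the Nox4-/- lines they ranged from 0 to 2 (0.816% to 4.21%). In the interaction, a line left out leaves 1 line of its genotype, so no call is read from those recounts. Log2 differences that turned were those of Pecam1 in the pooled comparison (from 0.42; -0.25 with all 4 lines, -0.04 to 1.11 with a line or day left out), Pecam1 in WT#1-4 less the Nox4-/- lines (from 0.53; -0.01 without day 0, up to 0.88), Sox18 in the pooled comparison (from -0.68 to 1.42 with all 4 lines) and Cdh5 in WT#20D-17 less WT#1-4 (0.36 without day 0, down to -1.13 without day 14). The cause was not tested. All 80 rescaled mean levels stayed within the SD over days, at 0.913 to 1.05 times the TMM value. Outside WT#20D-17, Emcn had at most 3 counts, Tie1 at most 15, Sox18 at most 17 and Kdr at most 76, so small differences in them were not detectable.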
